A study of Mus musculus with 4 samples.

Results

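CpG-dense tiles of high methylation are stretches of 1 kb that hold many CpGs and are almost fully methylated in mouse liver. The autosomes were cut into tiles of 1000 bp from position 1 (build mm10). A tile was a member when at least 20 of its CpGs were listed in any library, at least 3 of them had at least 10 reads in every library, and the unweighted mean of the 4 library levels was above 80%. These rules gave 1695 members, 7.998% of 21192 autosomal CpG-dense tiles, among 164026 tiles of the whole series with at least 3 such CpGs. Members were chosen by the mean level of all 4 libraries, so that level is given as a description, and the difference between genotypes was not used in the choice. The assay was reduced representation bisulfite sequencing (RRBS), which reads methylation in fragments cut at CCGG and TCGA sites. It was run on liver of 6-week-old C57BL6/N mice. There were 2 libraries from Pnpla7-/- mice (KO) and 2 from Pnpla7+/+ mice (WT). Pnpla7 encodes a lysophospholipase of phosphatidylcholine breakdown, and the design sets livers that lack it against livers that have it. The labels do not say how the Pnpla7 allele was made or whether a genotype's libraries come from separate animals, so the p-values below measure only the spread between these libraries.

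In mammalian DNA most CpGs are methylated, and methylated cytosine is lost over evolution by deamination to thymine, so CpGs are rare outside stretches that stay unmethylated in the germ line. Those stretches, the CpG islands, usually lie at gene starts. CpG-dense DNA that is fully methylated in somatic tissue is known from the bodies of transcribed genes, where the methyltransferase DNMT3B is drawn to the histone mark H3K36me3, and from the promoters of a set of germ-cell genes that are methylated around implantation and kept silent in the soma.

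The gene-start sequences below are those of 6 genes with known roles in germ cells whose starts lay in or at a member tile. They are shown because they are promoters dense in CpGs that read as methylated in liver. Each runs from 250 bases before to 50 bases after the annotated start, 5′ to 3′ on the gene's strand, from RefSeq (GRCm38.p6), with every CpG in capitals. The 6 were chosen after their values were seen. The windows are chr1:166238695-166238994 (minus strand) for Mael, chr3:40708621-40708920 (plus) for Slc25a31, chr3:95559427-95559726 (plus) for Hormad1, chr3:55181794-55182093 (plus) for Sohlh2, chr17:32034459-32034758 (minus) for Hsf2bp and chr9:21067044-21067343 (minus) for Zglp1.
Mael: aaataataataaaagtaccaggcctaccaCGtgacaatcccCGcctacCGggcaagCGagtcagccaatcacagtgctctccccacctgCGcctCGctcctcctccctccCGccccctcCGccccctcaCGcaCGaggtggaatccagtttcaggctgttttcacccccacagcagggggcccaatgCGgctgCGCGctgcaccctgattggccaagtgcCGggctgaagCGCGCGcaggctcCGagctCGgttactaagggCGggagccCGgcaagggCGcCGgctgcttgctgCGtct
Slc25a31: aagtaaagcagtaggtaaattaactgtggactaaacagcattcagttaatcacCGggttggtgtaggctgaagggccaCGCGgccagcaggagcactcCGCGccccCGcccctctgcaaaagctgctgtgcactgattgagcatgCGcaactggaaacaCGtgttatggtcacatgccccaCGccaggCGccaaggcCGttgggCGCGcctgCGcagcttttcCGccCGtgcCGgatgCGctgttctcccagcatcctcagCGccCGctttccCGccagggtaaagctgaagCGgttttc
Hormad1: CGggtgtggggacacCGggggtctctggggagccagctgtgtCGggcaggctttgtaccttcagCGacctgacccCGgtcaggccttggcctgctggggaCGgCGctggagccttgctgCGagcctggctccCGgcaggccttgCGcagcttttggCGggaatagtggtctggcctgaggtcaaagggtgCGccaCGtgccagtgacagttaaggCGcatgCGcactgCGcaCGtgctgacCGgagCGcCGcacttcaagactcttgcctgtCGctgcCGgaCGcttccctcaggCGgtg
Sohlh2: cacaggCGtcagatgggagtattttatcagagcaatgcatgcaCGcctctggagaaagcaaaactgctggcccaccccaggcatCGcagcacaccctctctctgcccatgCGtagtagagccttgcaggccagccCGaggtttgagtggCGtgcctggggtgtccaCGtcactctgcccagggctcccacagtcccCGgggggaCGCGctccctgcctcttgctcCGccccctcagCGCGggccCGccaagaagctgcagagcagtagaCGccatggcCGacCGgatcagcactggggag
Hsf2bp: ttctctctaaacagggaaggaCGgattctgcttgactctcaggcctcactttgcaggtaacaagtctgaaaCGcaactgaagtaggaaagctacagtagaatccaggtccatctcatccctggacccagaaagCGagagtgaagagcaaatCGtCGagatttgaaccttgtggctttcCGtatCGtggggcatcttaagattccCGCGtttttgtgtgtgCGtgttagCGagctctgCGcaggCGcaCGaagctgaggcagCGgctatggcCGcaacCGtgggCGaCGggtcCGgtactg
Zglp1: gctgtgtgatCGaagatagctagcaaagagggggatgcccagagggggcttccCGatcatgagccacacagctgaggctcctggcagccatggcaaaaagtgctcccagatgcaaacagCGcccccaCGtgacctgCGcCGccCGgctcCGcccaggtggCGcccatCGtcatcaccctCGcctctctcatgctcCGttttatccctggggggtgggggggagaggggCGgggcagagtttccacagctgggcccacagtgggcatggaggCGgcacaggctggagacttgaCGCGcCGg

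The Hormad1 window held 24 CpGs, of which 17 were analysed, and the window level was 89.5% and 91.3% in the KO libraries, against 88.4% and 88.2% in the WT libraries. HORMAD1 is a protein of the meiotic chromosome axis. In the Mael window, with 24 CpGs of which 8 were analysed, the level was 81.8% and 81.3% in the KO libraries, against 83.4% and 88.3% in the WT libraries. MAEL acts in the piRNA pathway that silences transposons in male germ cells. The Slc25a31 window, at the start of the testis ADP/ATP carrier gene, was at 85.4% and 83.5% in the KO libraries, against 89.8% and 92.1% in the WT libraries. The Sohlh2 window, at the start of a helix-loop-helix regulator of early germ cells, was at 90.1% and 80.6% in the KO libraries and 94.2% and 90.2% in the WT libraries. The Hsf2bp window, at the start of a meiotic recombination gene, was at 92.1% and 94.4% in the KO libraries, against 97.2% and 97.9% in the WT libraries. The Zglp1 window, at the start of a GATA-type zinc finger gene of the gonad, was at 93.7% and 94.7% in the KO libraries, against 94.1% and 93.7% in the WT libraries. The KO libraries lay below the WT libraries in the Mael, Slc25a31, Sohlh2 and Hsf2bp windows, with a narrow gap at Sohlh2, above them in the Hormad1 window, and overlapped them in the Zglp1 window. Among all members both KO libraries lay above both WT libraries in 17.3% of tiles and below them in 18.2%, so such separation was common. The windows shown here were chosen after their values were seen, and they were not tested on their own. The member tiles that hold the starts were, and none was called; most of the Sohlh2 window lies before its tile. In the quasi-binomial model with limma's shrinkage adjusted p was 0.524 for the Hsf2bp tile and 0.975 for the Zglp1 tile, and those of the other 4 are given with the germ-cell genes.

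High methylation became rare as CpG number grew. Among autosomal tiles with 5 to 9 listed CpGs 62.4% were above 80%, and among those with 10 to 19 the share was 49.98%. It was 19.7% at 20 to 29 CpGs, 4.91% at 30 to 39, 1.13% at 40 to 59 and 0.262% at 60 to 161. Of all CpG-dense tiles 17988 were at or below 20% and 1509 were between 20% and 80%. The members thus lay mostly near the lower limit of CpG number, with a median of 23 listed CpGs (range 20 to 119), and 323 of them had exactly 20. With 19 listed CpGs, just outside the rule, 400 autosomal tiles were above 80%. Only CpGs within reach of the enzyme sites are listed, so these numbers understate the CpGs in the DNA.

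**Figure D1:**
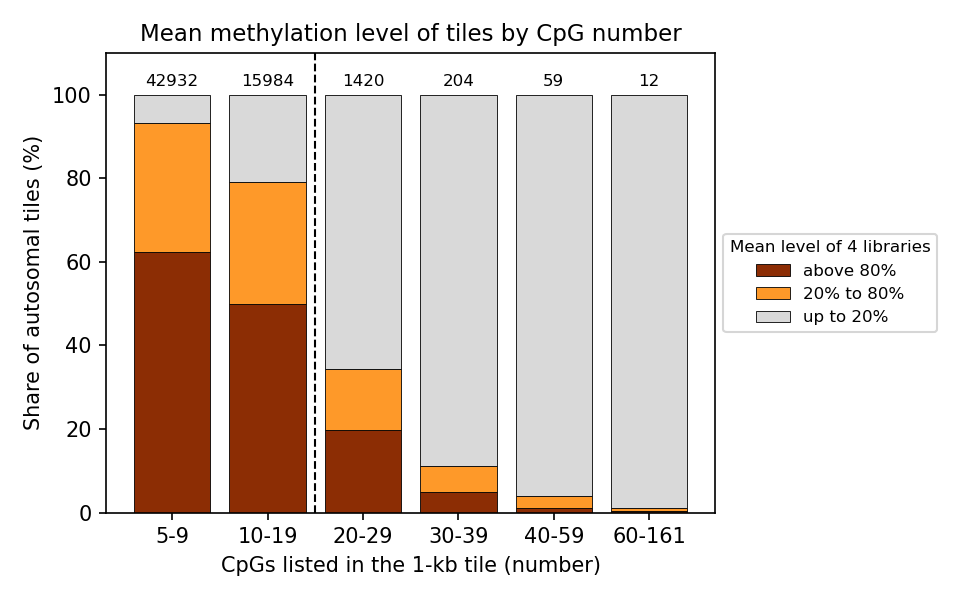
Share of autosomal tiles (y, %) at 3 ranges of mean methylation level, by the number of CpGs listed in the tile (x); the number above each bar counts tiles above 80%, and bars right of the dashed line hold the CpG-dense tiles. The share above 80% is 62.4% at 5 to 9 CpGs and 0.262% at 60 to 161.

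The median member was at 91.4%, and members ranged from 80.02% to 98.1%. Of the members 241 lay between 80% and 85%, 409 between 85% and 90%, 816 between 90% and 95% and 229 above 95%. Just inside the limit were tiles in Midn (80.02%), near Gm36254 (80.07%) and in Nod2 (80.13%), and just outside were tiles in Ncf1 (79.96%), Fam110a (79.98%) and Krt42 (79.99%). Within 1 point of the limit there were 39 tiles above it and 38 at or below it. The median member had 14 analysed CpGs, and 343 and 342 reads in KO replicates 1 and 2, against 305 and 346 in WT replicates 1 and 2. At 342 reads with 308 methylated the exact 95% binomial interval (Clopper-Pearson) runs from 86.4% to 93.0%. At the smallest depth, 30 reads with 27 methylated, it runs from 73.5% to 97.9%. Reads of a tile are summed over its CpGs, so a read that covers several CpGs is counted at each of them. These intervals treat all counts as independent and cover counting error only. Amplified reads are not independent molecules either, so the true intervals are wider. Library totals were 59953688 and 60535892 reads over cytosines in KO, and 50413170 and 59437109 in WT.

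Most CpGs of the members were at a high level, which is partly set by the rule, because it uses the level of the same CpGs. Of 24119 analysed CpGs in members 90.3% were above 80%, 9.64% were between 20% and 80%, and 26 (0.108%) were below 20%. In 803 members (47.4%) every analysed CpG was above 80%, and 1578 (93.1%) had no CpG below 50%. The median standard deviation among the CpGs of a tile was 5.60 points. Tiles with the largest share of CpGs below 50% lay in Klhl36, with 5 of 23, in Gm42072, with 3 of 15, and near Slc35e3, with 1 of 5. At the other end stood 2 tiles of Zfp865, with 59 and 53 analysed CpGs, and 1 of Tmem259, with 56, none of which had a CpG below 50%. At 7431 CpGs with at least 40 reads on each strand (summed over libraries) the mean level was 90.9% on the forward and 90.9% on the reverse strand, and 35 CpGs differed by more than 20 points between strands.

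Most members lay inside genes and away from gene starts. Of the 1695, 1434 (84.6%) had their midpoint in an annotated protein-coding or lncRNA gene, and for 1395 it was in a protein-coding gene. The share in a gene was 77.9% for CpG-dense tiles of intermediate methylation, 78.1% for those of low methylation and 66.8% for tiles with 5 to 19 listed CpGs above 80%. The midpoint of 63 members lay more than 50 kb from any protein-coding or lncRNA gene, against 19 of 1509, 43 of 17988 and 3924 of 58916 tiles of those classes. An annotated start fell in 46 of the 1656 members on chromosomes with start annotation (2.78%), against 13.8% of CpG-dense tiles of intermediate methylation, 49.0% of CpG-dense tiles of low methylation and 1.26% of tiles with 5 to 19 listed CpGs above 80%. The median distance to the nearest start was 14070.5 bp in members, against 5751 bp, 515 bp and 20388 bp in the same 3 classes. In distance from starts the members were thus nearer to CpG-poor methylated tiles than to other CpG-dense tiles. Differences between classes of tiles were not tested, since tiles are not replicates.

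Members were most frequent towards the ends of genes. For 1106 members the strand of a protein-coding gene was known, and their median position was 77.8% of the way from start to end, against 53.3% for intermediate tiles, 2.78% for low tiles and 59.98% for CpG-poor methylated tiles. The last 10% of the gene held 27.8% of the members, against 16.2%, 2.11% and 15.3% of those classes. The first 10% held 3.80% of members and 71.1% of low tiles. The annotation used here gives gene ends but no exons, so exonic, intronic and UTR positions were not analysed here.

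**Figure D2:**
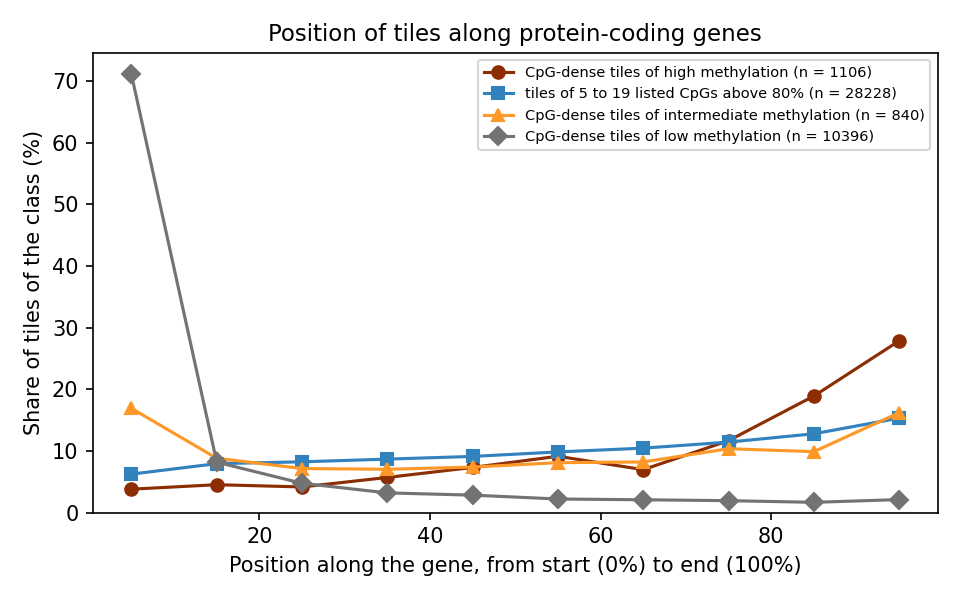
Share of each class of tiles (y, %) in 10 equal steps along protein-coding genes (x, start to end), for tiles in genes of known strand. Members reach 27.8% in the last step, where CpG-poor methylated tiles reach 15.3%, and low tiles hold 71.1% in the first.

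The DNA next to members was methylated too, although some neighbours were members themselves and so above 80% by the rule. Neighbouring members formed 78 runs of 2, 10 of 3, 2 of 4 and 1 of 5. Tiles 1 kb before and after a member on the chromosome had medians of 90.5% (n = 648) and 90.8% (n = 649), against 87.6% and 87.8% beside tiles with 5 to 19 listed CpGs above 80%, and 54.4% and 48.2% beside CpG-dense tiles of intermediate methylation. At or below 20% were 3.24% and 3.70% of the tiles at 1 kb, and 19.3% and 16.8% of those at 5 kb before and after. Of 282 members with both neighbours measured, 170 had both above 80%, and 45 of 1015 with any neighbour measured had a neighbour at or below 20%.

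**Figure D3:**
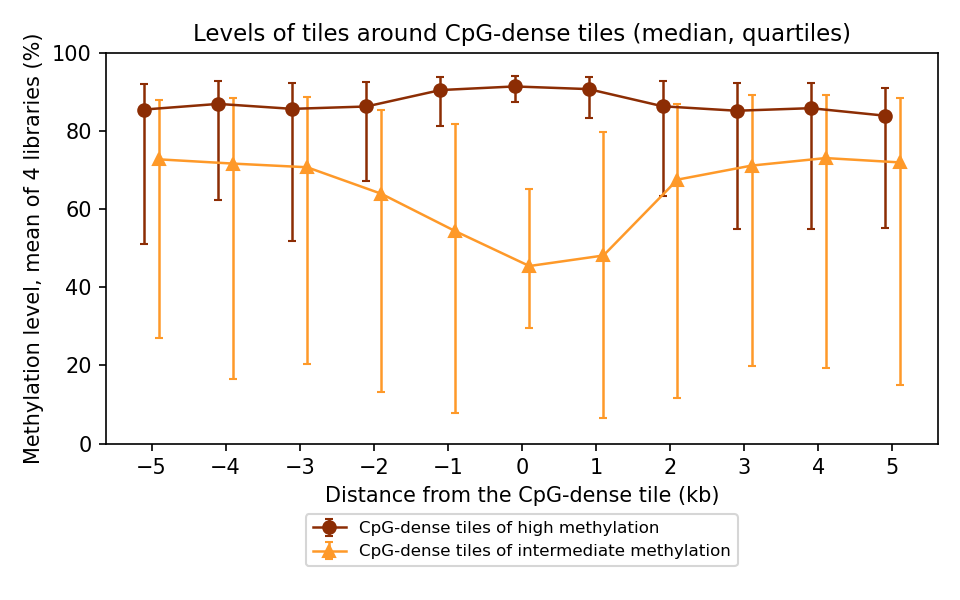
Median methylation level (y, %, mean of 4 libraries, bars from lower to upper quartile) of tiles at distances of -5 to 5 kb (x) from members and from CpG-dense tiles of intermediate methylation. Medians beside members, where some tiles are members too, are 90.5% and 90.8% at 1 kb, and beside intermediate tiles 54.4% and 48.2%.

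The members were spread over 1163 protein-coding genes, of which 970 held 1 member. Among the 5 genes with most members, Plec, for the cytoskeletal linker plectin, held 9 members among its 12 CpG-dense tiles, with levels of 91.2% to 97.2%, and 2 runs of 4 neighbouring members. Their mean was 95.7% and 95.03% in the KO libraries, against 95.5% and 95.6% in the WT libraries. Fat1, for a giant protocadherin, held 7 of 11, at 94.8% and 96.6% in KO and 96.5% and 96.1% in WT. Spen, for a transcriptional corepressor of X inactivation, held 7 of 10, at 91.2% and 92.9% in KO and 93.4% and 93.8% in WT. Zfhx3, for a homeodomain zinc finger factor, held 7 of 14, and Gse1, for a chromatin protein, 5 of 16. The longest run of neighbouring members was the stretch chr4:141475001-141480000 in Spen, with 5 tiles at 89.8% and 92.1% in the KO libraries, against 94.1% and 92.6% in the WT libraries. KO was below WT there, but KO replicate 2 and WT replicate 2 lay within 1 point of each other.

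The densest members were a tile of Zfpm1, for the GATA cofactor FOG1, with 119 listed CpGs, a tile of Shroom3, for an actin-binding shape protein, with 100, a start tile of Tmem267 with 99, a tile shared by Arhgap23 and the start of 4933428G20Rik with 94, and a tile of Zfp865 with 82. The Zfpm1 tile (chr8:122336001-122337000) was at 85.5% and 81.8% in the KO libraries, against 87.9% and 86.6% in the WT libraries. Both KO libraries were below both WT libraries, but the difference of -3.64 points did not pass the test (adjusted p = 0.339, moderated quasi-binomial model with limma's shrinkage). In Tmem267 the KO libraries were at 78.7% and 86.5%, against 86.0% and 86.0% in WT, so KO replicate 1 alone stood apart. Chromosomes 5 and 8 held most members, 152 each, and chromosome 16 the fewest, 30. As a share of CpG-dense tiles the range ran from 5.04% on chromosome 16 to 11.7% on chromosome 8.

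The 46 members at gene starts covered 36 protein-coding and 12 lncRNA genes. Of 8901 autosomal start windows with at least 15 CpGs and 3 analysed ones, 42 (0.472%) were above 80% and 98.7% were at or below 20%. By CpG number the first 10 protein-coding genes were Tmem267, 4933428G20Rik, Hsf5, Mael, Sohlh2, Fignl2, Taf7l2, Dmrtb1, Tex14 and Pramel1. Among these Hsf5 encodes a heat shock factor of spermatocytes, Dmrtb1 a regulator of the entry into meiosis, Tex14 a part of the bridges between germ cells, and Mael and Sohlh2 have been described above. The Hsf5 tile was at 87.3% and 88.9% in the KO libraries, against 89.0% and 88.2% in the WT libraries. The Tex14 tile was at 95.6% and 95.8% in KO, against 93.6% and 96.7% in WT. In the Dmrtb1 tile the KO libraries were at 87.6% and 83.2% and the WT libraries at 87.0% and 78.4%. In all 3 tiles the genotypes overlapped. A methylated tile did not always mean a methylated start: of 50 distinct start windows in members 30 had 3 or more analysed CpGs, and 25 of these were above 80%. The Chad window, at the start of a cartilage matrix gene, was at 39.3% in the mean of the 4 libraries, and the Gm48552 window at 41.9%, inside tiles above 80%.

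Letters that match sites of 2 factors known at germ-cell gene promoters were counted in these start windows. CACGTG, the E-box of MAX and MGA, which reads the same on both strands, was found in 8 of 50 windows (16%), against 7.15% of all 32815 windows of the same length. Among windows with at least 10 CpGs the numbers were 8 of 35 (22.9%), against 10.9% of 14256. TCCCGC, as bound by E2F6, searched on both strands, was in 24% of the 50 windows, against 19.97% of all windows. The MspI site CCGG was in 84% against 52.8%, and the TaqI site TCGA in 30% against 21.99%. Among windows with at least 10 CpGs TCCCGC was in 34.3% of those in members, against 40.3% of all, CCGG in 88.6% against 88.4% and TCGA in 34.3% against 31.6%. None of these letters overlaps in full with another of the set, and a match says nothing about binding. In the sequences above CACGTG stands in the Mael, Slc25a31, Hormad1 and Zglp1 windows.

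Of the 22 gene lists, that of germ-cell genes had the highest share of genes with a member at a start. Of autosomal protein-coding and lncRNA genes with a CpG-dense tile 9.08% (1264 of 13915) held a member, and of those with such a tile at a start 0.502% (48 of 9561) held a member there. Of 25 germ-cell genes with a CpG-dense tile 11 held a member, and of 17 with one at a start 6 held a member there. This list collects genes known to be silenced by promoter methylation, so it is no independent evidence of their level. The 6 were Dpep3 (a testis dipeptidase), Rpl10l (a testis ribosomal protein), Sohlh2, Hormad1, Slc25a31 and Mael. The Dpep3 tile was at 93.9% and 96.0% in the KO libraries, against 93.5% and 97.5% in the WT libraries. Of the other 11 start tiles 8 were intermediate and 3 low. The intermediate ones ran from Dazl, for an RNA-binding protein of germ cells, at 76.9% and 79.2% in KO against 79.5% and 73.7% in WT, to Hspa1l at 17.9% and 22.1% in KO against 24.2% and 23.8% in WT. Low ones were Stag3, Zcwpw1 and Mlh3, for a meiotic cohesin, a histone reader of meiosis and a mismatch repair protein. Over the 6 members the mean was 89.9% and 89.1% in the KO libraries, against 90.3% and 91.8% in the WT libraries, with 2 tiles higher and 4 lower in KO. None passed the test of the quasi-binomial model with limma's shrinkage, whose adjusted p was 0.747 for Mael, 0.629 for Slc25a31, 0.919 for Hormad1, 0.980 for Sohlh2, 0.971 for Dpep3 and 0.994 for Rpl10l.

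**Figure D4:**
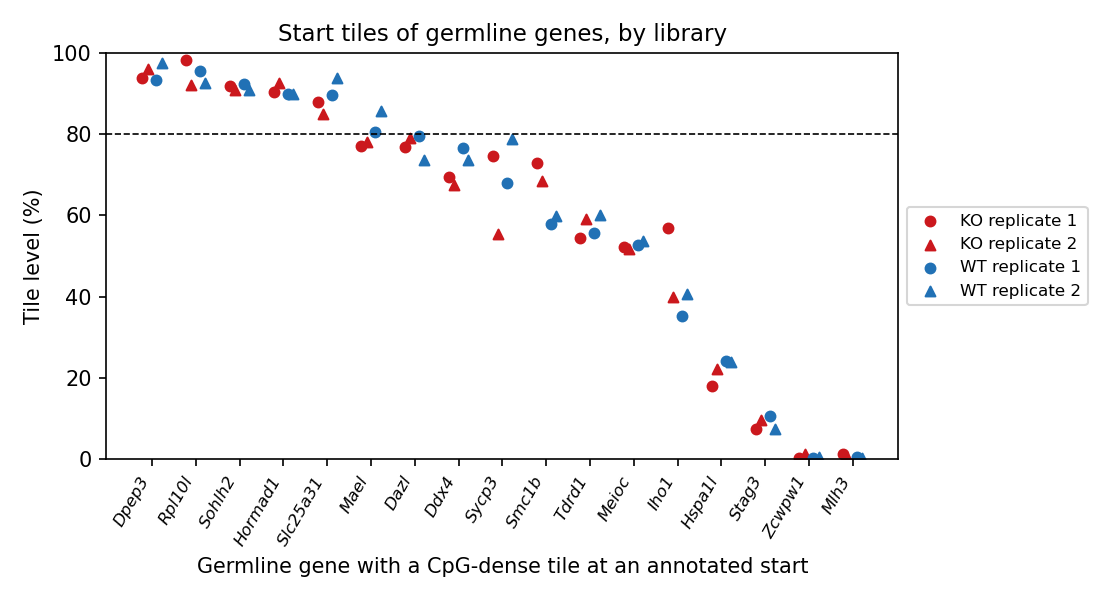
Level (y, %) in each library of the CpG-dense tile at the start of 17 germ-cell genes (x), with KO libraries left of WT libraries for each gene and the 80% limit dashed. The 6 members stand at the left, from Dpep3 to Mael, and Stag3, Zcwpw1 and Mlh3 at the right end are low in every library.

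Other lists held members mostly inside genes. Of 282 zinc finger genes with a CpG-dense tile 65 (23.0%) held 88 member tiles, with Zfpm1, Zfp865, Zbtb7a and Zfp467 leading by CpG number. The 88 averaged 91.7% and 91.2% in the KO libraries, against 91.2% and 91.6% in the WT libraries, with 39 tiles higher and 49 lower in KO. Of 180 homeobox and other developmental factor genes 5 (2.78%) held one, and of 47 protocadherin genes 1. The DNA methylation genes held members in 5 of 23: Dnmt1 (the maintenance methyltransferase), Tet3 (a dioxygenase of methylcytosine), Mbd3 (a NuRD subunit), Zbtb38 (a reader of methylated CpGs) and Kdm2b (a CXXC protein that binds unmethylated CpGs). Of their 6 member tiles 5 had a higher and 1 a lower KO mean, with a median difference of 1.14 points, and the 6 averaged 92.7% and 93.3% in the KO libraries, against 92.4% and 91.6% in the WT libraries; none was called. The lower one, in Tet3, was at 92.5% and 95.9% in the KO libraries, against 95.4% and 94.5% in the WT libraries. Members lay in 4 of 12 Notch, Celsr and Megf receptor genes, 4 of 21 collagen, 2 of 7 laminin, 4 of 20 calcium channel, 10 of 70 potassium channel, 24 of 225 solute carrier, 2 of 7 myosin heavy chain and 1 of 19 ADAMTS genes.

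In pathways close to Pnpla7 the share of genes with a member was near that of all genes with a CpG-dense tile (9.08%). Of 29 phospholipid turnover genes with such a tile 3 (10.3%) held a member, none at a start. The Pnpla6 tile, in the gene of the neuropathy target esterase and nearest relative of Pnpla7, was at 94.6% and 92.7% in the KO libraries, against 95.6% and 93.6% in the WT libraries. The Pnpla2 tile, in the gene of adipose triglyceride lipase, was at 92.3% and 92.9% in KO, against 92.7% and 93.7% in WT, and the Pla2g15 tile, in a lysosomal phospholipase gene, at 93.8% and 95.2% in KO, against 95.7% and 95.7% in WT. In all 3 the KO mean was lower by 1.19 points or less, and none passed the test. Of 22 methyl donor genes 2 (9.09%) held a member, Chdh and Shmt2, for choline dehydrogenase and a mitochondrial serine hydroxymethyltransferase. The Chdh tile was at 86.1% and 86.6% in KO, against 86.6% and 84.0% in WT. Pnpla7 itself had 9 tiles, none of them CpG-dense and none a member.

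Of 26 imprinted genes 3 held a member, none at a start: Peg10, Zim1 and Rtl1. The Rtl1 members also hold miRNA genes that lie antisense to Rtl1, a retrotransposon-derived gene of the Dlk1-Dio3 domain. The tile chr12:109590001-109591000 holds Mir431 and was at 90% and 87.4% in the KO libraries, against 86.5% and 92.6% in the WT libraries. The tile chr12:109594001-109595000 holds Mir434 and overlaps Mir432, and was at 94.7% and 92.9% in KO, against 94.3% and 95.02% in WT. Neither tile separated the genotypes. The Zim1 and Peg10 tiles did, without passing the test. Among all members both KO libraries lay above both WT libraries in 17.3% and below them in 18.2%. The Zim1 tile was at 92.1% and 94.5% in KO, against 85.9% and 89.7% in WT (5.55 points, adjusted p = 0.450, limma-moderated model). The Peg10 tile was at 92.5% and 92.7% in KO, against 93.8% and 94.0% in WT (-1.36 points, adjusted p = 0.936, same limma-moderated model). The mature miRNAs are shown because their genes lie in or across the edge of the Rtl1 members. Of these, miR-431 and miR-434 lie inside, and mature miR-432 lies just past the end of its tile, which holds part of the precursor. From RefSeq (GRCm38.p6, plus strand), 5′ to 3′, they read as follows, with the seed (bases 2 to 8) in capitals, and no pair shares a seed.
mmu-miR-431-5p: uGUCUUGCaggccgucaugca
mmu-miR-431-3p: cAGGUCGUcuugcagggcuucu
mmu-miR-434-5p: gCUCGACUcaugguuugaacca
mmu-miR-434-3p: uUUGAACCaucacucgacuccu
mmu-miR-432: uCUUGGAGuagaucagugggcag

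Levels at the starts of cell type genes are given as a description. Too few markers were measured to check the labelled tissue. Start windows had at least 1 analysed CpG for 2 of 10 hepatocyte markers, Apob at 11.2% and Fgb at 13.6%, and for none of 9 leukocyte and Kupffer cell markers. Apob, with 4 CpGs, was at 22.5% and 4.26% in the KO libraries, against 8.47% and 9.72% in the WT libraries. Fgb, with 3 CpGs, was at 20.2% and 9.77% in KO, against 11.8% and 12.5% in WT. KO replicate 1 was thus highest at both, whereas WT replicate 2 was highest at Epcam and Des. Epcam, a cholangiocyte marker, was at 55.3%. The stellate markers Reln and Des were at 0.612% and 35.2%, Lrat had no methylated read among 303, which allows up to 0.990%, and the endothelial marker Kdr was at 0.233%. Over wider lists members lay in 1 of 6 leukocyte genes (Zap70), 2 of 5 endothelial genes (Cdh5 and Vwf) and no cholangiocyte (of 5) or stellate (of 4) gene. In bulk liver a level averages over all cells, so a change in the mix of cells and a change within cells cannot be told apart.

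The mean level over members differed little between genotypes. The mean over members was 90.5% and 90.5% in the KO libraries, against 90.4% and 90.5% in the WT libraries, or 90.50 ± 0.0376 in KO and 90.45 ± 0.0396 in WT (SD, n = 2 each). The libraries of the 2 genotypes overlapped, with a difference of 0.0510 points, and with 2 against 2 libraries an exact two-sided permutation test cannot go below p = 0.333. Of the members 857 had a higher KO mean and 838 a lower one, and the median difference was 0.0337 points, against 0.177 over all tiles tested. The median absolute difference between the means of 2 KO and 2 WT libraries was 1.28 points. Between single libraries it was 1.62 points within KO and 1.64 within WT; a difference of single libraries is wider than one of means, so these do not compare directly. A difference of 5 points or more was found in 92 members (5.43%), against 20.1% of all tiles tested. The share was 13.6% of CpG-poor methylated tiles, 30.8% of CpG-dense tiles of intermediate methylation and 0.589% of those of low methylation. Classes differ in level and in analysed CpGs (median 14 in members, 5 in CpG-poor methylated tiles), so their counting errors differ too. Both KO libraries were above both WT libraries in 293 members (17.3%), against 19.5% of all tiles, and below them in 309 (18.2%), against 14.9%. At unadjusted p under 0.05 stood 126 members (7.43%), against 6.31% of all tiles.

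Only 2 members were called at adjusted p under 0.05 and at least 10 points (0.118%), against 0.0874% of all 163610 tiles tested. One was higher in KO (all tiles 0.0666%) and the other lower (all tiles 0.0208%). The share of members called is near that of all tiles. Of CpG-dense tiles of intermediate methylation 30 (1.99%) were called.

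**Figure D5:**
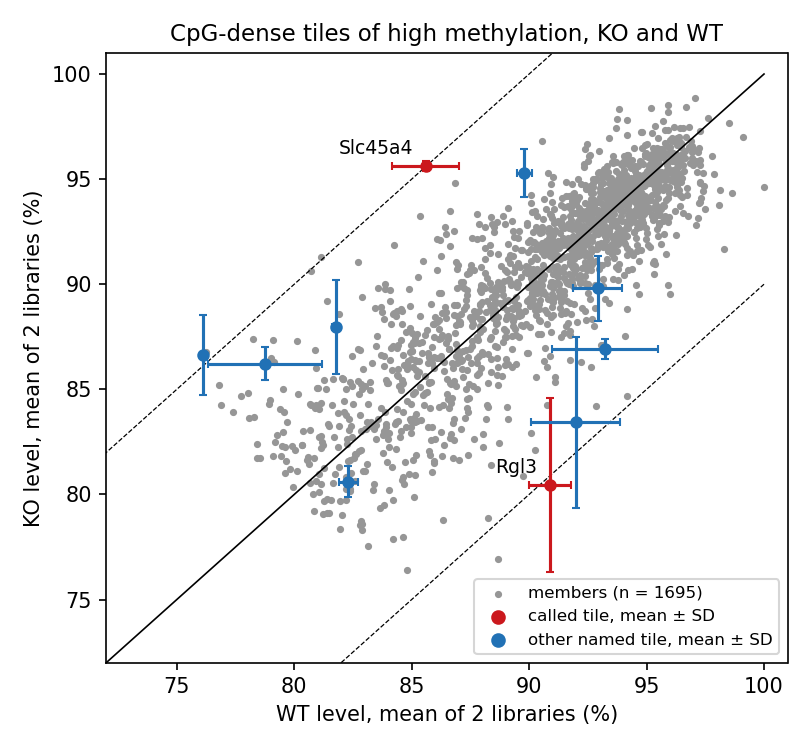
KO level (y, %, mean of 2 libraries) against WT level (x, %, mean of 2 libraries) of the 1695 members; coloured points are the 10 named tiles with SD bars, the solid line marks equality and the dashed lines 10 points. The called tiles in Slc45a4 and Rgl3 lie at about the dashed lines, and most members lie near the solid line.

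The called tile higher in KO, chr15:73586001-73587000, lies in Slc45a4, a solute carrier gene. It was at 95.8% and 95.5% in the KO libraries, against 86.6% and 84.6% in the WT libraries, with 426 to 463 reads per library. The difference of 10.03 points passed the test (adjusted p = 0.00333, moderated quasi-binomial model with limma's shrinkage). It rested on 1 CpG, at position 73586292, which was at 91.3% and 88% in KO and 0% and 0% in WT, with 46 to 51 reads, where counts of 0 allow up to 6.25% and 5.88% in the 2 WT libraries. This was the only CpG of any member that was above 70% in both KO libraries and at or below 10% in both WT libraries, and none showed the opposite. Without it the tile was at 96.3% in KO and 96.1% in WT, a difference of 0.199 points (adjusted p = 0.992). With any 1 library left out adjusted p was 0.763 to 0.938, with limma on log2 ratios it was 0.894, and at 20 reads per CpG the difference was 19.8 points.

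The called tile lower in KO, chr9:21981001-21982000, lies in Rgl3, which encodes an exchange factor for the small GTPase Ral, at 43.6% of the way along the gene. It was at 83.4% and 77.5% in the KO libraries, against 90.3% and 91.5% in the WT libraries, with 400 to 589 reads per library, a difference of -10.4 points (adjusted p = 0.0137, same model). Of its 16 CpGs 15 were lower in KO. Many of them lie between positions 21981318 and 21981444, so a read can cover several and they are not separate observations. The widest gap was at position 21981373, where KO was at 60.9% and 47.8% and WT at 69.2% and 89.3%. Without this CpG the difference was -9.69 points (adjusted p = 0.0247), just under the size needed for a call. In the same model the call was also lost at 20 reads per CpG (-8.36 points, adjusted p = 0.458) and at 5 analysed CpGs per tile (0.0535). It was lost too with limma on log2 ratios (0.894), where 0 tiles of the whole series were called. With any 1 library left out the call was lost, and the difference was -13.4 to -7.51 points. A genotype then has a single library and nearly all calls of the series were lost, so this loss is not particular to the tile. Of the 4 measured tiles of the gene before it on the chromosome, those at 2 and 8 kb differed by -2.34 and -3.37 points, and those at 4 and 6 kb by 1.77 and 1.16 points, and none passed the test. A tile 7 kb after it on the chromosome, at lower methylation, was at 30.1% and 22.8% in the KO libraries, against 34.0% and 35.8% in the WT libraries (adjusted p = 0.140).

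The next 4 tiles by p in each direction did not pass the test. With higher KO values stood Celsr1, for a planar polarity cadherin, at 88.0% and 85.3% in the KO libraries, against 76.0% and 76.2% in the WT libraries (adjusted p = 0.0770, limma-moderated model). Its CpG at 85978878 was at 95.8% and 56.2% in KO, against 0% (allowing up to 25%) and 4.55% in WT, and without it the difference was 7.59 points. In Rtl6, a retrotransposon-derived gene, the difference of 5.50 points was 0.222 points without the CpG at 84556614, which was at 93.8% and 55.2% in KO and 0% and 0% in WT (counts of 0 allow up to 12.5% and 10.3%). Slc45a4, Celsr1 and Rtl6 all lie on chromosome 15. Zkscan5, a zinc finger gene, differed by 7.47 points with 13 of 15 CpGs higher, and the tile nearest to Gm833 by 6.20 points. With lower KO values stood Fam50b, at 80.6% and 86.3% in the KO libraries, against 90.6% and 93.3% in the WT libraries (adjusted p = 0.0620, same limma-moderated model), with 18 of 19 CpGs lower. CpGs of a tile can share reads, so the counts of CpGs in Zkscan5 and Fam50b are not counts of separate observations. Plekhf1, for an endosomal protein, differed by -6.30 points and Abhd17a, for a depalmitoylase, by -3.11 points. Sfi1, for a centrin-binding protein, differed by -1.69 points at 299 reads per CpG. The Sfi1 tile and 1 in Efl1, with 182 reads per CpG, were the 2 members read at over 5 times the members' median of 24.8; whether reads from other copies of these sequences add to them was not tested.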

How the data were processed

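MspI and TaqI fragments of liver DNA were bisulfite sequenced, per the labels' protocols. For each library the authors deposited 2 tracks of score units, a level and a depth, on mm10 per the file headers; both carry negative values at cytosines of the reverse strand. The submitters' processing notes list BWA 0.7.12 and MACS with no role given. Other upstream steps: not given in the sources used here. Products of level and depth were whole numbers at 100% of positions (tolerance 1e-06) and served as methylated reads.

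Reads of the 2 strands were added per CpG, and a CpG needed 10 reads in each of the 4 libraries. A tile level is methylated over total reads, both summed over the analysed CpGs of the tile. KO and WT were compared with a quasi-binomial model, its Pearson dispersion shrunk with limma 3.58.1 and held at 1 or above, with Benjamini-Hochberg adjustment over 163610 tiles. The model was also run on reads simulated with its own fitted spread, which is no independent check of it. The members and the 22 gene lists were chosen with earlier results of these data known. Named were the 5 members of smallest p in each direction, the densest, those at gene starts, the genes with most members, the longest run, up to 4 genes per list, tiles at the 80% limit, tiles of most and least mixed CpGs, and Pnpla7. Further names were added after values were seen. Results of 2 lists are not reported here. Names, starts and sequences came from RefSeq (GRCm38.p6); start windows span 250 bases before and 50 after a start. R 4.3.3, Python 3.11.15, pandas 2.3.3 and SciPy 1.17.1 were used. Alternatives covered coverage, tile rules, other tests, a replicate block and each library left out.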

Additional observations from a re-analysis of the deposited data

How the results depend on the processing

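The number of members, 1695, was 275 at a minimum of 30 listed CpGs, 5086 at 15, and 1045 above 90%, and stayed within 1.5 times under the other settings run. The mean difference over members, 0.0510 points, was 0.0146 at 5 analysed CpGs per tile, 0.105 with tiles shifted by 500 bp, 0.217 at 15 listed CpGs, -0.321 at 30, -0.0396 above 90% and -0.0787 weighted by reads, and 0.0230 to 0.0789 with a library left out. Called members, 2 in the model used, were 0 at 5 reads per CpG and at 30 listed CpGs, 1 at 20 reads, at 5 analysed CpGs and above 90%, 4 at 15 listed CpGs, above 75% and with Fisher's exact test on summed reads, and 0 with limma on log2 ratios (45 members at unadjusted p under 0.05). Leaving out the CpG that differed most, an alternative added after seeing the data, gave 0. Neither tile was called without all 4 libraries. With any 1 library left out a genotype has a single library and nearly all calls of the series were lost. The loss thus cannot show that these 2 tiles depend on a single library. Calls among all tiles, 143, were 52 at 20 reads, 64 at 5 analysed CpGs, 1231 with Fisher's test, 0 with limma (9062 unadjusted) and 0 to 2 with a library left out. With the replicate number as a block there were 0 called members (36 unadjusted) and 0 called tiles (2797 unadjusted). Deviations of same-numbered libraries correlated at -0.00844 over all tiles and -0.0494 over members. Counting error in each tile weakens such a correlation, so it cannot decide whether same-numbered libraries share a batch. The labels do not say. Of 110 values of single named tiles, none changed direction, but these tiles were chosen by p and refitted on largely the same reads. On the same side of the threshold stayed 91, mostly of tiles that were not called in the main fit. Of 11 values each, only 3 stayed for Slc45a4 and 1 for Rgl3, and their other 18 fell below the threshold. Only 1 value, Celsr1 with Fisher's test (adjusted p = 0.000109), newly passed it. Depth limits the shallowest members: at 30 reads summed over CpGs, with 27 methylated, the counting interval runs from 73.5% to 97.9% at the least.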
